A study of Rattus norvegicus with 26 samples.

Results

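Hearts of adult male rats that had been exposed to hypoxia before birth were compared with hearts of adult male controls, in 10 of the 26 RNA-seq libraries of a study of prenatal hypoxia. The hypoxia group held 5 hearts of males whose dams had been kept under low oxygen in late pregnancy, and the control group held 5 hearts of males whose dams had breathed room air. All rats were Sprague Dawley, an outbred strain, and all 10 hearts were taken at 5 months of age, with no further treatment named in the labels. The hypoxia was therefore the fetus's and not the adult's, and the labels name no low oxygen in the months between exposure and sampling. Each library was made from the total RNA of 1 heart, with no chamber named in the labels, so that every value below mixes muscle, vessel, connective tissue and blood cells. Fewer cells of a type and less RNA per cell cannot be told apart in such a sample. The labels do not name the dam of each male, and p-values treat the 10 hearts as independent. The values are FPKM, fragments scaled to transcript length and to library depth. Of the 30044 genes listed, the 13327 that averaged 1 FPKM or more in the 10 hearts were tested.

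The fetus meets low oxygen with a slowed growth and a redistribution of blood flow towards the heart and the brain, and the fetal heart answers with changes in its vessels, its metabolism and its number of muscle cells. Low oxygen acts within cells mainly through the hypoxia-inducible factors, transcription factors that are stable only when oxygen is scarce and that switch on glycolytic enzymes and growth factors of vessels. Rats that were short of oxygen before birth are more vulnerable to ischaemic injury of the heart later on. More widely, an adverse environment in the womb is associated with ischaemic heart disease in adults. The loss of protein kinase C epsilon, a kinase that protects heart muscle, has been studied as a route in the rat.

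The 10 libraries were hearts by their RNA, but they differed widely in genes of atrial muscle. Myl7, the regulatory myosin light chain of atrial muscle, was at 3391, 79.0, 2.74, 16.9 and 88.2 FPKM in control hearts 1 to 5. In hypoxia hearts 1 to 5 it was at 5.91, 28.8, 577, 946 and 224 FPKM. Control 1 and hypoxia 4 stood highest and control 3 lowest, so that each group held hearts rich and hearts poor in this gene. Nppa, the atrial natriuretic peptide, was at 7026, 631, 284, 544 and 435 FPKM in the controls and at 160.1, 511, 244, 2460 and 395 FPKM in the hypoxia hearts. Kcnj3, a potassium channel subunit of atria, was at 62.7 FPKM in control 1 and at 23.7 to 39.4 FPKM in the other 9 hearts, hypoxia 4 included. The share of atrial tissue in each heart was not tested. The difference between groups in Myl7 (0.79 on log2(FPKM + 1)) was not detectable by a two-sided exact permutation test (p = 0.73, and 0.841 adjusted over the 6 genes compared in this way). The 10 libraries also differed in genes that hearts hardly use. Of 1386 olfactory and vomeronasal receptor genes, 381 to 1106 were listed above 0 in control 3, 4 and 5 and in hypoxia 2, 4 and 5, and 38 to 53 in the other 4 hearts. By the step between low values, which is what 1 fragment is worth, the libraries held an estimated 5325650 to 9029230 fragments on genes. The 6 libraries with many olfactory genes lay at 5325650 to 7487910 and the other 4 at 7959290 to 9029230. Both properties crossed the groups: the counts of olfactory genes had means of 483 in control and 471 in hypoxia (exact permutation p = 0.921). The Y-linked gene Eif2s3y, a subunit of a translation initiation factor, lay between 11.4 and 14.6 FPKM in all 10 hearts. Rn28s, the 28S ribosomal RNA left in the libraries, was at 1868 to 2346 FPKM in control and at 2115 to 3445 FPKM in hypoxia, a difference of 0.39 on log2(FPKM + 1) (two-sided exact permutation p = 0.0317, adjusted p = 0.19 over the 6 genes). Its part in the other values was not tested.

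**Figure D1:**
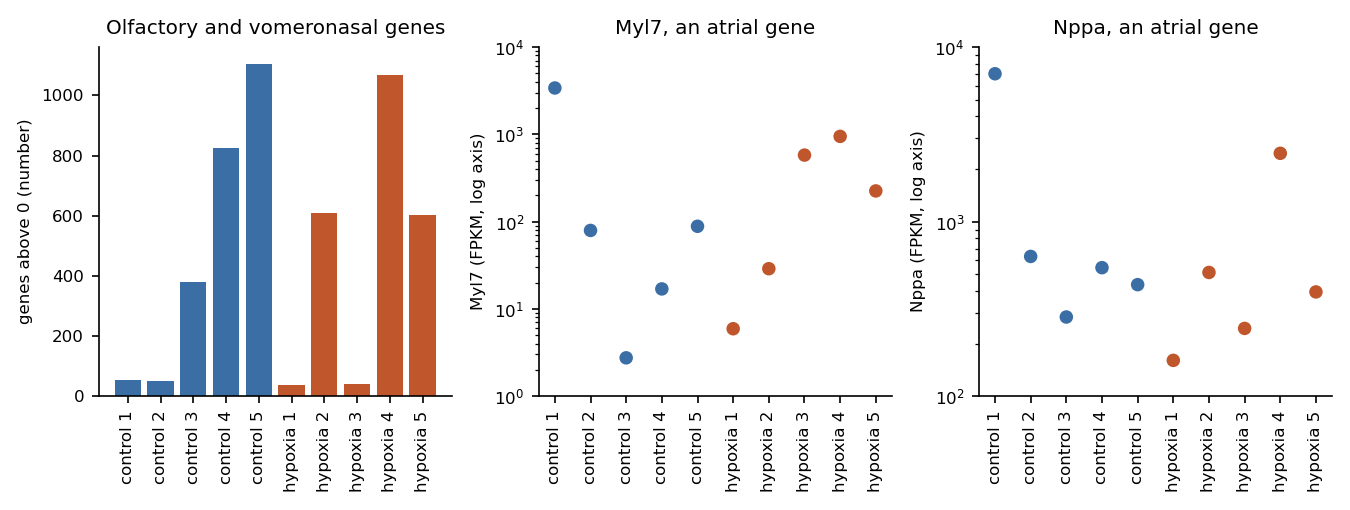
The left panel counts the olfactory and vomeronasal receptor genes listed above 0 in each of the 10 male hearts, and the other panels give the FPKM of Myl7 and Nppa on log axes (blue, control; orange, hypoxia; 1 bar or point per heart). Hearts with 381 or more olfactory genes, and hearts rich in atrial genes such as control 1 and hypoxia 4, occur in both groups.

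By limma, no gene passed the thresholds of the study between the hypoxia and control hearts, an adjusted p below 0.3 with a fold above 1.2. The study applied these thresholds to its own Cuffdiff test, which was not run here, so that the limma counts are not its counts. Limma called 0 of 13327 genes (0%), and 0 had an adjusted p below 0.05. By voom on estimated fragments the count was 0 as well. At an unadjusted p under 0.05 there were 411 genes higher in hypoxia (3.08% of the genes tested) and 361 lower (2.71%). The smallest adjusted p was 0.437. In 79 genes (0.593%) every hypoxia heart lay above every control heart, and in 41 (0.308%) every hypoxia heart lay below. Within the 6 libraries with many olfactory genes limma called 0 genes, and within the other 4 it called 2, LOC103694296 and Trnal-uaa, of which the second is a transfer RNA gene. The median log2 fold change over all genes was -0.01, and the median standard error was 0.137. The spread of single genes was alike in both groups, with a median SD on the log2 scale of 0.200 in control and 0.213 in hypoxia. The groups did not separate along the first 3 principal components, which held 33.4%, 15.5% and 11.4% of the variance (two-sided exact permutation p = 0.698, 0.841 and 0.151, and 0.841, 0.841 and 0.452 adjusted over the 3). All genes below are described by their values and their place in this distribution.

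Among the genes with the smallest p whose groups did not overlap, Mmrn2 led. It encodes multimerin 2, a matrix protein that endothelial cells lay down beneath themselves. Its FPKM was 9.30, 10.3, 11.5, 8.98 and 9.56 in controls 1 to 5 and 15.0, 14.9, 15.0, 14.2 and 13.8 in hypoxia hearts 1 to 5. The lowest hypoxia heart lay above the highest control, with a log2 fold change of 0.51 (SE 0.078, limma adjusted p = 0.437). Hyal1, a lysosomal enzyme that degrades hyaluronan, was at 7.18, 11.2, 9.89, 11.6 and 7.52 FPKM in control and at 16.3, 16.7, 17.3, 15.1 and 16.2 FPKM in hypoxia. The 5 hypoxia hearts lay close together and above all controls (log2 fold change 0.74, SE 0.127, adjusted p = 0.517). Clec1a, a C-type lectin receptor found on endothelial and dendritic cells, was at 4.99, 4.15, 5.92, 5.18 and 5.87 FPKM in control and at 6.29, 8.93, 10.5, 10.5 and 7.38 FPKM in hypoxia. Its groups did not overlap either, although hypoxia 1 came near the highest controls. The other 7 genes of this kind had smaller differences. They were Ccnt1, the cyclin of the kinase that releases paused RNA polymerase II (log2 fold change 0.49), Creld1, a membrane protein of heart valve development (0.50), and Atp9a, a lipid flippase of endosomes (0.46). The list also held Igsf3, a member of the immunoglobulin superfamily (0.42), Ston1, an adaptor of endocytosis (0.35), Abcc5, an exporter of cyclic nucleotides (0.34), and Pcsk7, a proprotein convertase (0.34). Their adjusted p was 0.669 each. Within the libraries with many and with few olfactory genes, the log2 fold change of Mmrn2 was 0.48 and 0.57, and that of Hyal1 0.69 and 0.83, directions that the choice by non-overlapping groups fixes.

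The genes that were lower in every hypoxia heart included transcription factors, a kinase-like regulator and a molecule of antigen presentation. Trib1, a pseudokinase that steers proteins to degradation, was at 5.33, 5.32, 5.86, 5.73 and 6.18 FPKM in control and at 4.01, 4.32, 3.55, 4.47 and 4.22 FPKM in hypoxia. Both groups were tight and stood apart (log2 fold change -0.39, SE 0.078, limma adjusted p = 0.669). Pter, a phosphotriesterase-related protein, was at 10.6, 14.7, 15.8, 16.3 and 11.7 FPKM in control and at 10.5, 8.15, 8.77, 6.11 and 5.69 FPKM in hypoxia, where hypoxia 1 nearly reached control 1. Klf5, a Krüppel-like transcription factor of smooth muscle and fibroblast remodelling, averaged 1.72 ± 0.308 FPKM (SD, n = 5) in the controls and 0.850 ± 0.208 (SD, n = 5) in the hypoxia hearts. RT1-CE10, a class I antigen-presenting gene of the rat major histocompatibility complex, was at 20.5, 34.2, 19.4, 29.8 and 32.4 FPKM in control and at 9.22, 13.7, 6.44, 17.8 and 14.8 FPKM in hypoxia. Its log2 fold change of -1.12 (SE 0.256, adjusted p = 0.669) was the largest of the 20 genes in size, and its close copies in the same complex leave the split of its reads uncertain. Of the rest, Gprc5d, an orphan receptor, had a log2 fold change of -0.74, Rps10, a protein of the small ribosomal subunit, of -0.60, and Tmem47, a junctional membrane protein, of -0.52. Zfp703, a transcriptional repressor (-0.37), Gpkow, a splicing factor (-0.35), and Zxdc, a zinc finger protein that acts on class II antigen genes (-0.29), completed it. Mmrn2 was called when only genes averaging 5 FPKM or more were tested (adjusted p = 0.196), with upper-quartile scaling (0.213), without control 3 (0.236) and with the level of atrial genes as a covariate (0.177). Hyal1 and Pter were called with that covariate as well (adjusted p = 0.177 each), and Pter also when the olfactory term was added to it (0.131).

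**Figure D2:**
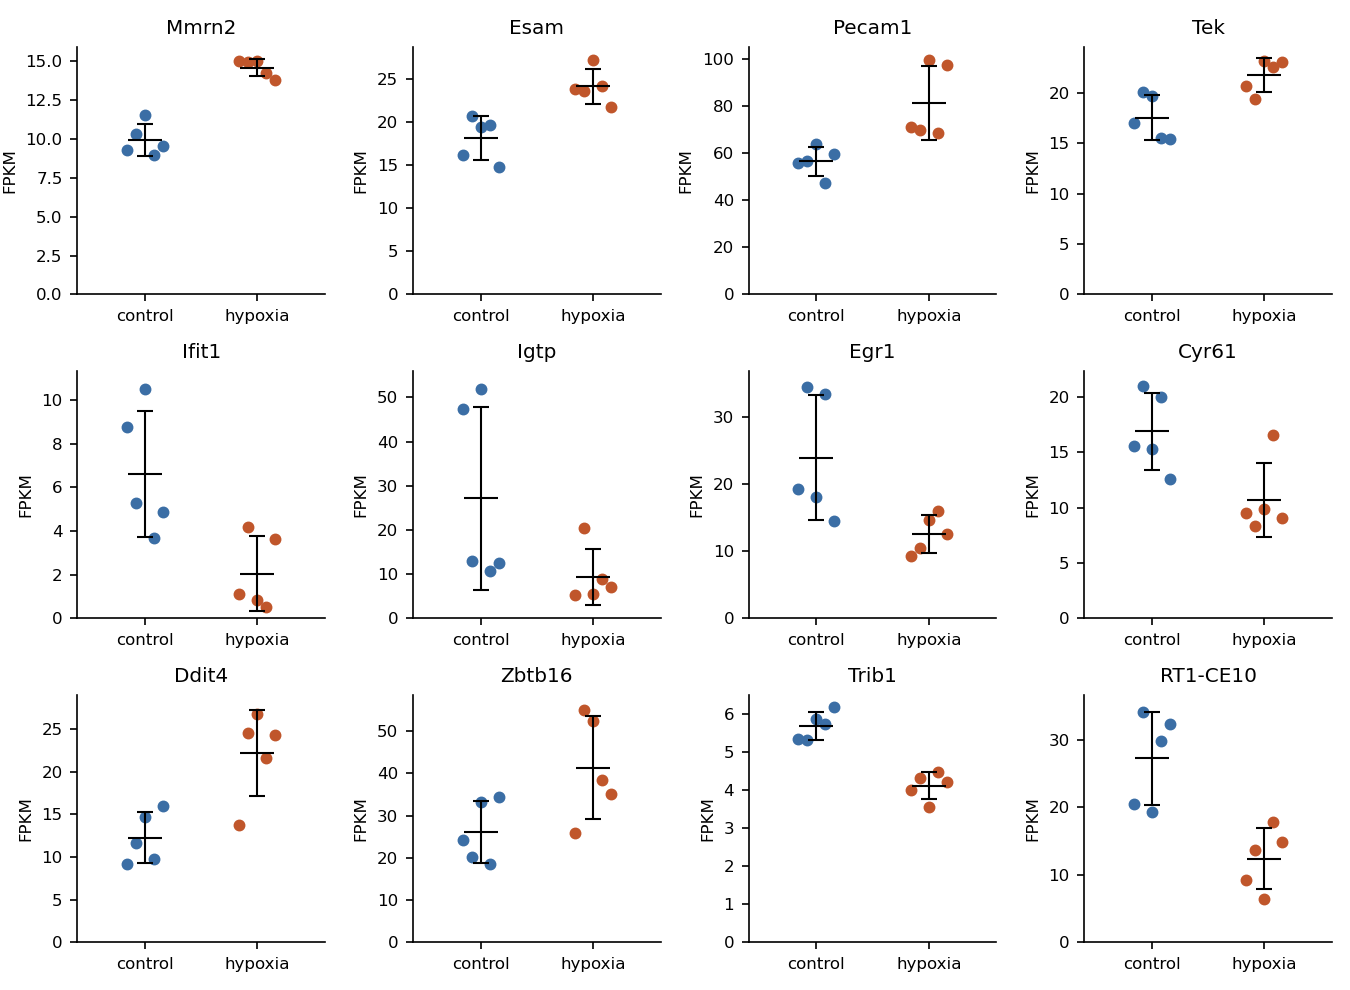
FPKM of 12 genes in the 5 control (blue) and 5 hypoxia (orange) hearts, 1 point per heart, with the mean and SD in black; each axis starts at 0. Hypoxia hearts lie above all controls in Mmrn2, Esam and Pecam1 and below all controls in Trib1 and RT1-CE10, and overlap the controls in the others.

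Gene lists were described by the number of members on each side and by their median, beside the same over all genes tested, where 48.6% had a positive log2 fold change. Endothelial markers (median 0.26), complement (0.23), glucocorticoid response genes (0.23) and macrophage markers (0.21) had the highest medians among lists with at least 10 tested genes. Interferon response genes (-0.33), antigen presentation (-0.18) and immediate early genes (-0.17) had the lowest. No member of any list was called. The medians of 22 of the 34 lists with at least 10 tested genes lay on different sides of 0 within the 6 libraries with many olfactory genes and within the other 4. Among them were complement (0.52 and -0.41) and macrophage markers (0.28 and -0.10), which share the 3 C1q genes. The 4 libraries were control 1 and 2 and hypoxia 1 and 3, and the 6 held hypoxia 4. Control 1 and hypoxia 4, the hearts richest in atrial genes, thus lay on different sides of this split. Their part in these signs was not tested. Without hypoxia 4 the median was 0.0382 for complement and 0.0948 for macrophage markers. Complement was at 0.0543 to 0.133 without control 2, 3, 4 or 5 or hypoxia 5, each left out alone, and at 0.0774 over the 12 members other than C1q. Macrophage markers were at 0.0990 without control 2 and at 0.121 without control 4. Antigen presentation was at -0.0395 without control 3, and at -0.106 to -0.0963 without control 1, hypoxia 3 or hypoxia 5.

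**Figure D3:**
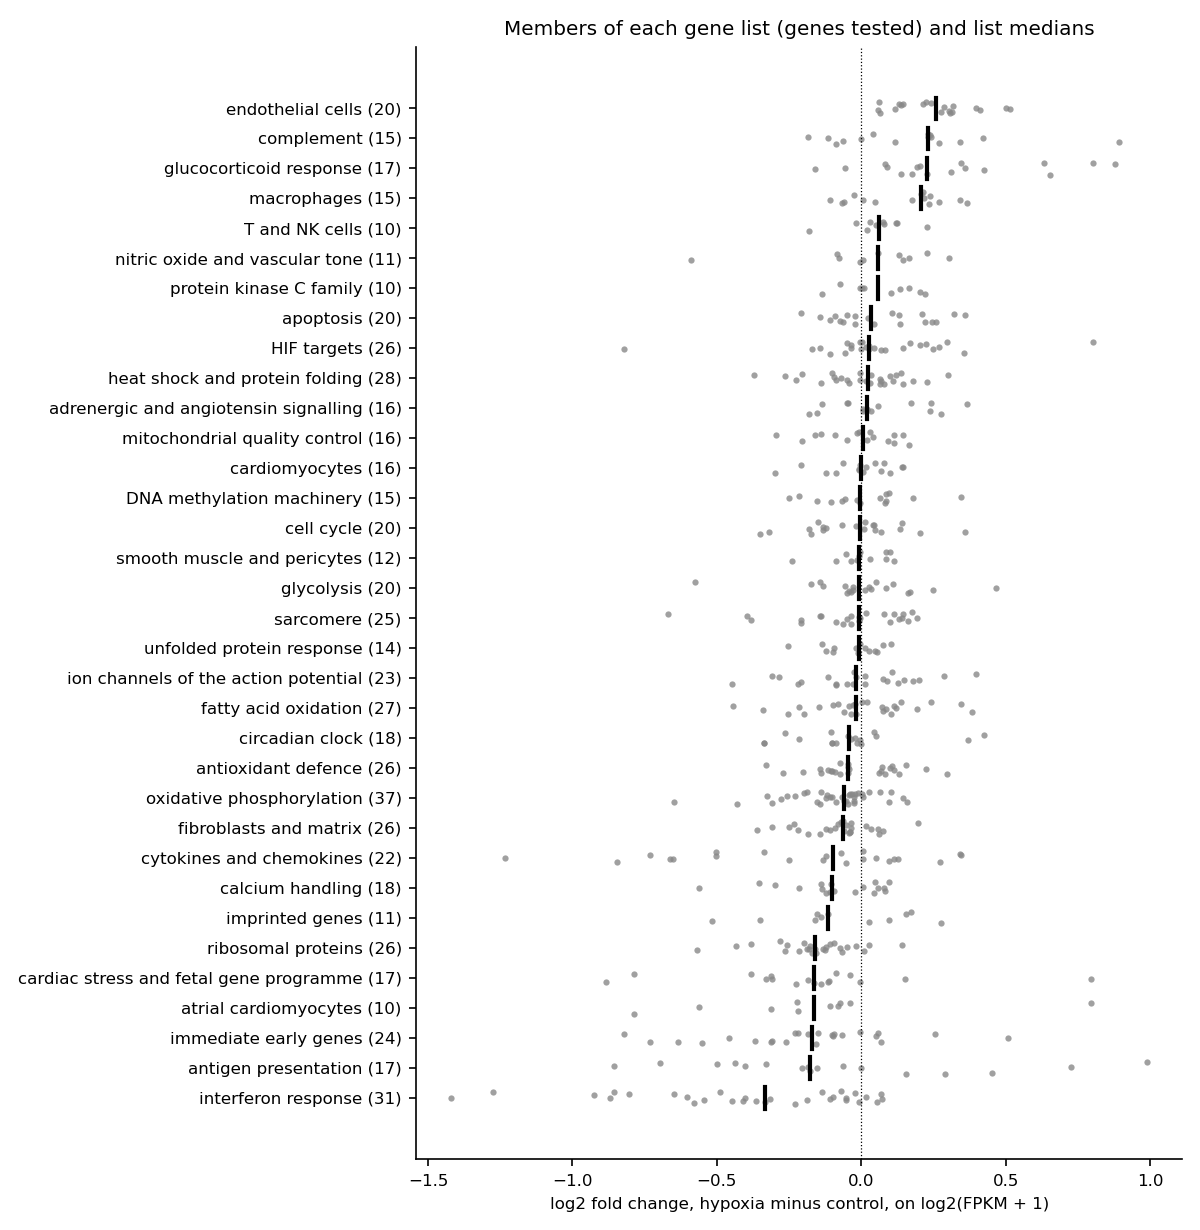
Log2 fold change (hypoxia minus control, on log2(FPKM + 1)) of every tested member of each list with at least 10 tested genes, 1 grey point per gene, with the list median as a black bar. The endothelial list lies wholly above 0 and most of the interferon list lies below 0.

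All 20 endothelial markers had a higher mean in the hypoxia hearts. Of them, 7 had an unadjusted p under 0.05 in that direction (35.0%, against 3.08% of all genes tested), none in the other, and in 4 the groups did not overlap (20%, against 0.593%). Esam, an adhesion molecule of endothelial junctions, was at 16.2, 20.7, 19.3, 19.7 and 14.7 FPKM in control and at 23.8, 23.5, 27.2, 24.2 and 21.7 FPKM in hypoxia. Every hypoxia heart was above every control (log2 fold change 0.40, SE 0.104, limma adjusted p = 0.672). Pecam1, which holds neighbouring endothelial cells together, was at 55.6, 56.7, 63.7, 47.1 and 59.8 FPKM in control and at 71.2, 69.7, 99.3, 68.5 and 97.1 FPKM in hypoxia. Hypoxia 3 and 5 stood well above the others, and the lowest hypoxia heart still exceeded the highest control (log2 fold change 0.50, adjusted p = 0.672). Tek, the receptor of the angiopoietins, overlapped through hypoxia 2, with 17.1, 20.1, 19.7, 15.5 and 15.4 FPKM in control and 20.7, 19.4, 23.1, 22.6 and 23.1 FPKM in hypoxia (log2 fold change 0.30). Vwf, the clotting factor stored by endothelium, had a log2 fold change of 0.41, and Eng, a coreceptor of transforming growth factor beta, one of 0.24. The 2 receptors of vascular endothelial growth factor were among the members that differed least. Kdr had a log2 fold change of 0.06 and Flt1 one of 0.12, and both were named after their values were seen. The list median stayed positive in every alternative run, from 0.18 to 0.32, and was 0.19 within the 6 libraries with many olfactory genes and 0.32 within the other 4. The mean level of the list, centred on the 10 hearts, ran from -0.32 to 0.09 in control and from -0.04 to 0.31 in hypoxia, so that the groups overlapped. Smooth muscle and pericyte markers, the other cells of the vessel wall, had a median of -0.01, with 5 of 12 positive, and lymphatic endothelium had one of -0.07 with 1 of 7 positive. Cardiomyocyte markers had a median of 0.00, and whether the hearts differed in their share of vessels was not tested.

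For each of 4 lists, promoters are given for the 1 or 2 members with the smallest p among those whose promoter was in the table and held the motif searched, so that every promoter shown holds it. They are taken from RefSeq on the build GRCr8, as the 250 bases before the start of the gene, to show the letters behind each list. Factors of the ETS family bind in promoters of many endothelial genes at a core GGAAGT, here marked in capitals on either strand. This core was in 6 of the 11 endothelial promoters that the table held (54.5%) and in 19.5% of all 27456 promoters. Interferon response promoters held it in 40.9% and immediate early promoters in 26.7%. In promoters of glucocorticoid response genes, the circadian clock, targets of the hypoxia-inducible factors and antigen presentation the core was in 13.3%, 6.25%, 4.76% and 0%. Mmrn2 (chr16:9711955-9712204, plus strand) has it 22 bases before the start, and Eng (chr3:36332029-36332278, plus strand) 129 bases before.
Mmrn2: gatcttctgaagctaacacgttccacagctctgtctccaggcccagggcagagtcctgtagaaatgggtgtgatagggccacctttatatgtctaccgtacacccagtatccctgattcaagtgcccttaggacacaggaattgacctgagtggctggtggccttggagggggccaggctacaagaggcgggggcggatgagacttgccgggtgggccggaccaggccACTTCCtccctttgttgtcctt
Eng: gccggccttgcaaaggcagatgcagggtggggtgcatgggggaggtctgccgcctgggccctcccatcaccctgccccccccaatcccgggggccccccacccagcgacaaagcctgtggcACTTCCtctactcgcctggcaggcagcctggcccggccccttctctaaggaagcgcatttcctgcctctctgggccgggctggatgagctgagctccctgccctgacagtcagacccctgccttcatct

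Most interferon response genes had lower means in the hypoxia hearts. These genes are switched on by interferons, the signals of infected cells. Of 31 tested, 27 had a lower mean in hypoxia, 5 had an unadjusted p under 0.05 in that direction (16.1%, against 2.71% of all genes) and 0 in the other, and the groups overlapped in every one. Ifit1, which blocks the translation of viral RNA, was at 8.76, 5.28, 10.5, 3.66 and 4.88 FPKM in control and at 1.12, 4.18, 0.845, 0.500 and 3.63 FPKM in hypoxia. Only hypoxia 2 reached the lowest control, and the log2 fold change was -1.42 (SE 0.379, limma adjusted p = 0.672). Igtp, an interferon-induced GTPase that acts on intracellular microbes, was at 47.4, 13.0, 51.9, 10.7 and 12.6 FPKM in control and at 5.21, 20.4, 5.55, 8.85 and 7.08 FPKM in hypoxia. Here control 1 and 3 stood above all other hearts by a wide margin. The remaining 3 controls lay above hypoxia 1, 3, 4 and 5 and below hypoxia 2 (log2 fold change -1.27, SE 0.499). Irf9, a subunit of the factor that answers interferon, had a log2 fold change of -0.55, and Rsad2, the antiviral enzyme viperin, one of -0.58 (adjusted p = 0.828 each). The centred level of the whole list was 0.66 in control 1 and 0.78 in control 3, and -0.23 to -0.11 in the other controls. In hypoxia it ran from -0.79 to 0.40, with hypoxia 4 highest and hypoxia 1 lowest. The size of the list median depended on which libraries were compared: it was -0.07 within the 6 libraries with many olfactory genes and -0.79 within the other 4, against -0.33 over all 10. Leaving out 1 heart at a time gave -0.50 to -0.20. The log2 fold change of Ifit1 was -1.04 within the 6 and -1.99 within the 4. T and NK cell markers (8 of 10 positive, median 0.06) and macrophage markers (11 of 15, 0.21) lay on the other side of 0 over all 10 hearts. Within the 6 libraries their medians were 0.16 and 0.28, and within the 4 they were -0.13 and -0.10, on the side of the interferon genes. The T and NK median was -0.03 without hypoxia 2. The part of immune cells in the interferon values was not tested. Cxcl10, a chemokine that interferon induces, was at 40.5, 5.55, 41.2, 6.19 and 1.94 FPKM in control and at 1.43, 6.45, 3.18, 7.18 and 4.48 FPKM in hypoxia, again with control 1 and 3 apart from the rest.

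The interferon-stimulated response element, a pair of GAAA words with 2 bases between them on either strand, was in 16 of 22 promoters of these genes (72.7%) and in 3.29% of all promoters. Igtp (chr10:42874797-42875046, plus strand) holds it 103 bases before its start, and Rsad2 (chr6:48788121-48788370, minus strand) 147 bases before, in the other orientation.
Igtp: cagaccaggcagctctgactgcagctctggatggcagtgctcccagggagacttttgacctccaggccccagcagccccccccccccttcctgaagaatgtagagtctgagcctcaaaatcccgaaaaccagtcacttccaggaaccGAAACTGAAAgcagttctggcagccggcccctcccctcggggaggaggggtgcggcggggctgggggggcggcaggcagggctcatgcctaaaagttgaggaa
Rsad2: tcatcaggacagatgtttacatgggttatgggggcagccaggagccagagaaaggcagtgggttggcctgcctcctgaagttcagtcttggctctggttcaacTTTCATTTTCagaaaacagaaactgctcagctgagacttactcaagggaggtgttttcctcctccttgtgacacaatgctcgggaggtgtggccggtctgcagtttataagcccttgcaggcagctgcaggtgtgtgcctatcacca

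Antigen presentation genes, which display peptides to T cells, mostly had lower means in hypoxia. Of 17 tested, 5 had a higher mean in hypoxia, 1 had an unadjusted p under 0.05 in that direction (5.88%, against 3.08% of all genes) and 2 in the other (11.8%, against 2.71%). The members with the smallest p were class I genes that went apart. RT1-A2, a classical class I gene, was at 36.1, 46.7, 36.3, 37.4 and 52.7 FPKM in control and at 20.98, 23.5, 12.3, 36.2 and 25.5 FPKM in hypoxia (log2 fold change -0.85, limma adjusted p = 0.674). RT1-CE7 was at 9.77, 15.5, 16.6, 18.9 and 10.6 FPKM in control and at 28.2, 43.3, 52.7, 18.7 and 15.3 FPKM in hypoxia, with a log2 fold change of 0.99 (adjusted p = 0.793). RT1-CE5 was on the side of RT1-A2 (-0.40). These genes are near copies that differ between the haplotypes of an outbred strain, so that reads can be split unevenly among them, and their values are uncertain as single genes. RT1-Bb, a class II chain, had a log2 fold change of 0.73 with the highest value, 17.9 FPKM, in hypoxia 3. B2m, the light chain that all class I molecules share, had one of -0.06 and was named after its value was seen. The wider list of cytokines and chemokines had a median of -0.10 over 22 genes, with 9 positive.

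Immediate early genes, which cells switch on within minutes of a stimulus, mostly had lower means in hypoxia. Of 24 tested, 19 had a lower mean, 6 with an unadjusted p under 0.05 (25%, against 2.71%), and 1 had such a p in the other direction (4.17%, against 3.08%). Egr1, a zinc finger factor of the growth and stretch response, was at 19.2, 34.5, 18.1, 33.4 and 14.5 FPKM in control and at 9.30, 10.4, 14.6, 16.04 and 12.6 FPKM in hypoxia. Control 2 and 4 stood highest, and only control 5 lay within the range of the hypoxia hearts (log2 fold change -0.82, SE 0.243, limma adjusted p = 0.740). Cyr61, a matrix protein that binds integrins, was at 15.5, 20.97, 15.3, 19.9 and 12.6 FPKM in control and at 9.54, 8.30, 9.84, 16.5 and 9.05 FPKM in hypoxia. Hypoxia 4 alone lay within the controls (log2 fold change -0.63, SE 0.185, adjusted p = 0.740). Atf3, a repressor of the stress response, had a log2 fold change of -0.55, and Jund, a subunit of the factor AP-1, one of -0.31. The exception was Arc, known as a regulator of synapses, with a mean of 1.06 ± 0.421 FPKM (SD, n = 5) in the controls and 1.97 ± 0.765 (SD, n = 5) in the hypoxia hearts, which was named after its value was seen. The list median was -0.17 and ran from -0.22 to -0.13 over all alternatives, with -0.15 and -0.22 within the libraries with many and with few olfactory genes. The cyclic AMP response element TGACGTCA was in 5 of 15 promoters of the list (33.3%) and in 1.7% of all promoters. Jund (chr16:18769772-18770021, minus strand) holds it 221 bases before its start.
Jund: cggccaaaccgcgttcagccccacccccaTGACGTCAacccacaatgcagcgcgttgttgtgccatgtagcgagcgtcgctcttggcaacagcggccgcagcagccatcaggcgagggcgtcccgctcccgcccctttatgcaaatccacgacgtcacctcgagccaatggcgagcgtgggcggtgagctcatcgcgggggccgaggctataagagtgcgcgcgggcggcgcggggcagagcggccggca

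Targets of the glucocorticoid receptor, the steroid receptor of the stress axis, mostly had higher means in hypoxia. Of 17 tested, 15 had a higher mean in hypoxia, 3 with an unadjusted p under 0.05 (17.6%, against 3.08%), and 0 had such a p in the other direction. Ddit4, an inhibitor of the growth kinase mTORC1 that both glucocorticoids and low oxygen induce, was at 9.23, 11.6, 14.7, 9.78 and 15.9 FPKM in control and at 13.8, 24.5, 26.7, 21.6 and 24.3 FPKM in hypoxia. Only hypoxia 1 lay within the controls (log2 fold change 0.80, SE 0.193, limma adjusted p = 0.669). Zbtb16, a zinc finger factor and sensitive marker of steroid exposure, was at 24.3, 20.1, 33.2, 18.7 and 34.4 FPKM in control and at 25.9, 55.0, 52.4, 38.3 and 35.2 FPKM in hypoxia, with hypoxia 1 again within the controls (log2 fold change 0.63, SE 0.231). Sult1a1, a sulfotransferase, had a log2 fold change of 0.65, and Cdkn1a, the cell cycle inhibitor p21, one of 0.36. The receptor gene itself, Nr3c1, had one of -0.16, and Fkbp5, a chaperone that damps the receptor, one of 0.23, both named after their values were seen. The list median of 0.23 lay between 0.19 and 0.34 in the alternatives. By hearts, the level of the list was lowest in control 2 and 4 (-0.37 and -0.48) and highest in hypoxia 2 and 4 (0.33 and 0.32), which leaves the other 6 hearts between -0.04 and 0.09. The glucocorticoid response element, GNACA and TGTNC with 3 bases between them, was found in 0 of 15 promoters of the list and in 0.364% of all.

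Targets of the hypoxia-inducible factors as a whole lay on both sides of 0. Of 26 tested, 16 had a higher mean in hypoxia, 2 with an unadjusted p under 0.05 (7.69%, against 3.08%) and 0 in the other direction, and the median was 0.03. The 2 were Ddit4, which stands in both lists, and P4ha2, a prolyl hydroxylase that prepares collagen, at 6.15, 5.59, 5.08, 3.89 and 4.79 FPKM in control and at 6.95, 5.71, 6.20, 8.72 and 6.48 FPKM in hypoxia (log2 fold change 0.36, limma adjusted p = 0.828). Ndrg1, a gene of differentiation and oxygen shortage, had a log2 fold change of 0.27, and Hk2, the hexokinase of striated muscle, one of 0.25. Vegfa (0.04) and Ldha (0.03), a vessel growth factor and lactate dehydrogenase, stood near 0 and were named after their values were seen. The core ACGTG of the hypoxia response element, which also lies within the E-box CACGTG, was in 8 of 21 promoters of the list (38.1%) and in 16.9% of all promoters. Ddit4 (chr20:28437038-28437287, minus strand) holds it 138 bases before its start.
Ddit4: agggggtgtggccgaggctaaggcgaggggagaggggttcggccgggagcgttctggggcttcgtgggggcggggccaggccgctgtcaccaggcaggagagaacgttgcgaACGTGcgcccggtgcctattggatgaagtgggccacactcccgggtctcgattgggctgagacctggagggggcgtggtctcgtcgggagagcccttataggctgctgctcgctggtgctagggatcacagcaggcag

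The circadian clock, whose genes rise and fall over the day, had a median of -0.04 over 18 genes. Bhlhe41, a repressor of the clock, was lower (-0.34, limma adjusted p = 0.787) and Per2, a period gene that glucocorticoids also induce, was higher (0.37, adjusted p = 0.793), each with an unadjusted p under 0.05. Each was the only member with such a p in its direction (5.56% of the list, against 2.71% of all genes lower and 3.08% higher).

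Ribosomal protein genes, which build the ribosome and are normally made in step, mostly had lower means in hypoxia. Of 26 tested, 23 had a negative log2 fold change, 4 with an unadjusted p under 0.05 (15.4%, against 2.71%), and the median was -0.16. Rps27a, which encodes a fusion of ubiquitin and a small-subunit protein, was at 18.4, 20.7, 22.1, 20.5 and 18.3 FPKM in control and at 16.1, 18.1, 9.99, 9.52 and 13.8 FPKM in hypoxia. Its groups did not overlap, with hypoxia 3 and 4 lowest (log2 fold change -0.57, SE 0.163, limma adjusted p = 0.740). Rplp1, a protein of the ribosomal stalk, was at 844, 696, 676, 806 and 589 FPKM in control and at 701, 678, 402, 543 and 485 FPKM in hypoxia, also lowest in hypoxia 3 (log2 fold change -0.38). Rpl27 and Rps23, of the large and the small subunit, had log2 fold changes of -0.26 and -0.26. By the level of the list, control 1 was highest (0.32) and hypoxia 3 lowest (-0.34), and the other 8 hearts lay between -0.08 and 0.09. The list median was -0.0875 without control 1, -0.0906 without hypoxia 3 and -0.08 without control 1 and hypoxia 4. It was -0.09 and -0.30 within the libraries with many and with few olfactory genes, and ran from -0.30 to -0.05 over all alternatives. Ribosomal protein genes have many processed copies in the genome, among which reads can be split.

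**Figure D4:**
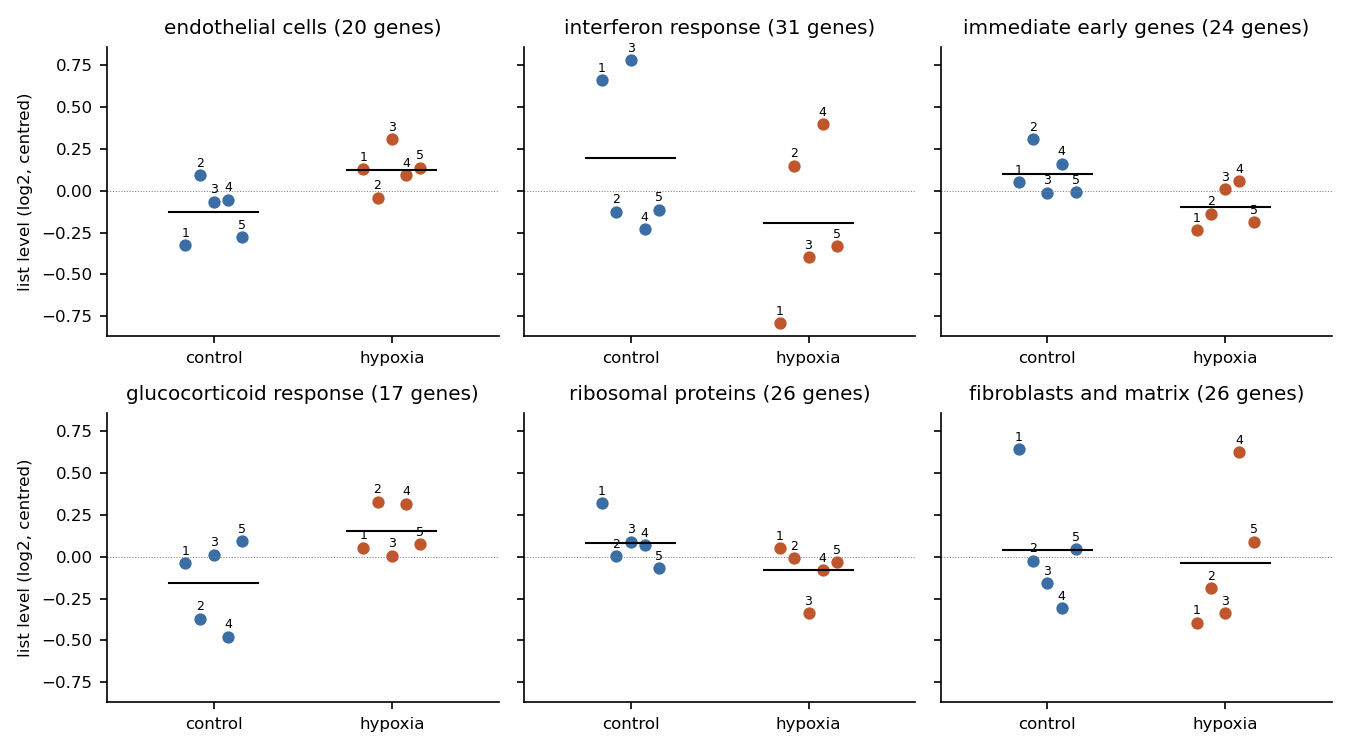
Level of 6 gene lists in each male heart, as the mean over members of log2(FPKM + 1) centred on the 10 hearts (1 point per heart with its replicate number, line at the group mean; blue, control; orange, hypoxia). Endothelial levels run from -0.32 to 0.09 in control and from -0.04 to 0.31 in hypoxia, interferon levels are set apart by control 1 and 3, and matrix levels by control 1 and hypoxia 4.

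The contractile and electrical genes of heart muscle showed no common shift. Cardiomyocyte markers had a median of 0.00 with 8 of 16 positive, and the sarcomere had one of -0.01 with 10 of 25 positive. Csrp3, a stretch sensor of the Z-disc, was at 2736, 1143, 2444, 1209 and 1024 FPKM in control and at 1011, 1046, 634, 1719 and 804 FPKM in hypoxia (log2 fold change -0.67, limma adjusted p = 0.865). Control 1 and 3 stood apart here as they did for the interferon genes. Ankrd1, a stress-induced titin-binding protein, had a log2 fold change of -0.38, with 3022 FPKM in hypoxia 4 and 1571.5 to 1972 FPKM in the other hypoxia hearts. Calcium handling genes had a median of -0.10 with 7 of 18 positive. Asph, whose transcripts also encode junctin of the calcium release complex, was at 82.7, 95.4, 117, 107 and 104 FPKM in control and at 88.8, 83.0, 70.7, 67.9 and 84.0 FPKM in hypoxia (log2 fold change -0.35, SE 0.114, adjusted p = 0.787). Pln, the brake of the calcium pump, had a log2 fold change of -0.30, and Cacna2d1, a subunit of the calcium channel, one of -0.22. Among 23 channel genes of the action potential, Cacna1h, a T-type calcium channel, had the smallest p (0.40, adjusted p = 0.828), and Hcn4, the pacemaker channel, had a log2 fold change of -0.45 with 11.3 FPKM in hypoxia 3 and 50.9 in control 3 as its extremes.

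Genes of cardiac stress mostly had lower means in hypoxia, with 15 of 17 negative and a median of -0.16. Nppb, the B-type natriuretic peptide that loaded ventricles release, was at 502, 483, 386, 478 and 212 FPKM in control and at 232, 230.1, 135, 309 and 197 FPKM in hypoxia. Only control 5 lay within the range of the hypoxia hearts (log2 fold change -0.89, SE 0.269, limma adjusted p = 0.768). Nppb was the 1 member with an unadjusted p under 0.05 (5.88% of the list, against 2.71% of all genes lower). Rcan1, an inhibitor of calcineurin, had a log2 fold change of -0.16. The level of this list was 1.65 in control 1 and 1.37 in hypoxia 4, and -0.86 to 0.11 in the other 8 hearts (the list holds the atrial genes Myl4, Myl7 and Nppa). Over its other 14 members it was 0.98 in control 1 and 1.04 in hypoxia 4, and -0.80 to 0.12 in the rest. The list median was -1.20 within the 4 libraries with few olfactory genes, which hold control 1, and 0.20 within the other 6, which hold hypoxia 4. Without control 1 it was 0.00378.

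Lists of energy metabolism had medians near 0 over all 10 hearts. Fatty acid oxidation, the main fuel route of the adult heart, had a median of -0.02 over 27 genes, and glycolysis one of -0.01 over 20. Nuclear-encoded subunits of oxidative phosphorylation had 29 of 37 genes negative with a median of -0.06 and no gene with an unadjusted p under 0.05. Within the libraries with many and with few olfactory genes the medians were -0.27 and 0.34 for fatty acid oxidation, -0.14 and 0.23 for glycolysis, and -0.30 and 0.24 for oxidative phosphorylation. Hypoxia 4 and control 1, the hearts with the lowest levels of oxidative phosphorylation (-0.57 and -0.26), lay in the first and the second of these sets. Cox5a, a subunit of cytochrome c oxidase, was at 888, 1041, 1223, 1527 and 1152 FPKM in control and at 1192, 1156, 507, 419.9 and 716 FPKM in hypoxia, lowest in hypoxia 4 (log2 fold change -0.65). Decr1, a reductase of unsaturated fatty acids, had a log2 fold change of -0.34 and Pfkp, a phosphofructokinase, one of -0.57, each with an unadjusted p under 0.05. Each was the only such member of its list (3.7% of fatty acid oxidation and 5% of glycolysis, against 2.71% of all genes lower).

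The protein kinase C family of signalling enzymes had a median of 0.06 over 10 genes, with 7 positive and none with an unadjusted p under 0.05. Prkce, the epsilon isoform, was at 9.69, 16.1, 14.9, 17.0 and 11.6 FPKM in controls 1 to 5 and at 15.1, 17.0, 20.4, 9.48 and 17.1 FPKM in hypoxia hearts 1 to 5. Its lowest values were in control 1 and hypoxia 4, the hearts richest in atrial genes. Prkcb, the beta isoform, had a log2 fold change of 0.22, and Prkd2, a related kinase, one of 0.20.

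Signalling by catecholamines, angiotensin and endothelin held 2 genes with an unadjusted p under 0.05 among 16, both higher in hypoxia (12.5%, against 3.08%). Ednrb, the endothelin receptor of endothelium, was at 10.4, 10.7, 8.65, 9.78 and 9.34 FPKM in control and at 11.3, 10.8, 12.6, 15.0 and 15.3 FPKM in hypoxia. Its groups did not overlap on FPKM, by a narrow margin of 10.7 against 10.8 (log2 fold change 0.37, SE 0.109, limma adjusted p = 0.740). On the deposited whole numbers, a second scale, they overlapped, with 361 in control 2 against 357 and 346 in hypoxia 1 and 2. Adcy6, an adenylyl cyclase of heart muscle, had a log2 fold change of 0.24. Nos3, the nitric oxide synthase of endothelium, had one of 0.23 in the list of vascular tone, whose median was 0.06. Of the apoptosis list, Bcl2l1 and Birc2, both inhibitors of cell death, had log2 fold changes of 0.36 and 0.22, with 11 of 20 members positive. Hsph1, a cochaperone, had one of 0.30 and Cryab, the abundant small heat shock protein of heart, one of -0.37, in a list whose median was 0.02. Mcm2, a helicase of DNA replication, averaged 3.56 ± 0.284 FPKM (SD, n = 5) in the controls and 2.67 ± 0.484 (SD, n = 5) in the hypoxia hearts, and the cell cycle list had a median of -0.01. Among genes of DNA methylation, Mbd4, a glycosylase that repairs methylated sites, had a log2 fold change of -0.25, and among imprinted genes Plagl1, a growth regulator, had one of -0.52. The medians of these lists were -0.01 and -0.12. Antioxidant defence (-0.05), mitochondrial quality control (0.01) and the unfolded protein response (-0.01) lay near the median of all genes.

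The largest differences between hearts lay within the groups. Among genes that averaged 5 FPKM or more, the 10 with the largest spread within groups were mitochondrial transfer RNA genes. Trny, for tyrosine, was listed at 0 in control 1 and 2 and in hypoxia 1, 3 and 5, and at 13350 to 76905 FPKM in the other 5 hearts, so that a value of 0 there can be a failed estimate. After these came Myl7, Sln and Myl4, named after their values were seen. Sln, which restrains the calcium pump in atria, was at 482, 8.38, 0, 2.01 and 24.3 FPKM in control and at 0.765, 1.91, 3.91, 124 and 14.6 FPKM in hypoxia. Myl4, the atrial essential light chain, was at 1551, 30.3, 3.79, 8.88 and 36.8 FPKM in control and at 3.54, 14.5, 16.7, 343 and 67.9 FPKM in hypoxia. Both were highest in control 1 and next in hypoxia 4, while hypoxia 3 had much Myl7 (577 FPKM) with little Sln and Myl4. The 2 hearts also had the highest levels of fibroblast and matrix genes (0.64 in control 1 and 0.63 in hypoxia 4, against -0.39 to 0.09 in the other 8) and the lowest levels of cardiomyocyte markers (-0.30 and -0.43, against -0.05 to 0.18) and of oxidative phosphorylation (-0.26 and -0.57, against -0.13 to 0.27). Macrophage markers (0.39 and 0.56, against -0.43 to 0.08) and complement (0.57 and 0.76, against -0.51 to 0.14) went with them. Without these 2 hearts, the medians were 0.20 for macrophages, 0.13 for complement, 0.18 for endothelial markers, -0.40 for interferon genes and 0.30 for glucocorticoid response genes, and 0 genes were called by limma, with 748 at an unadjusted p under 0.05.

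Of the other cell types, macrophage markers had 11 of 15 genes higher in hypoxia with a median of 0.21 and no unadjusted p under 0.05. Cd163, a scavenger receptor of resident macrophages, had a log2 fold change of 0.36 and Csf1r, their growth factor receptor, one of 0.18. C3, the central complement protein, was at 1.91, 1.06, 0.771, 0.861 and 2.88 FPKM in control and at 1.11, 1.41, 4.18, 10.6 and 4.52 FPKM in hypoxia, with hypoxia 4 highest (0.89). Tpsab1, a protease of mast cells, had a log2 fold change of 0.48 at values of at most 1.94 FPKM. Wt1, a factor of the epicardium that some endothelial cells also make, averaged 4.55 ± 0.395 FPKM (SD, n = 5) in the controls and 5.86 ± 1.36 (SD, n = 5) in the hypoxia hearts, with the highest value in hypoxia 3. Fibroblast and matrix genes had a median of -0.06 with 6 of 26 positive, and Fn1, fibronectin, a log2 fold change of -0.36. All 7 genes of the erythroid list had lower means in hypoxia (median -0.20). That median was -0.00828 without control 2, -0.0168 without control 4, -0.0434 without hypoxia 4 and -0.101 without hypoxia 5, and it was -0.59 and 0.46 within the libraries with many and with few olfactory genes. Hba1, an alpha globin, ranged from 330 to 984 FPKM with both groups over most of that range. Of 8 markers of lung and thymus, tissues that can cling to an excised heart, 0 passed the filter on low values.

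Whether the effect of prenatal hypoxia differed between male and female adult hearts was asked with an interaction term over 20 hearts. The libraries labelled female were from 5 control and 5 hypoxia-exposed rats of the same age and strain. Their libraries listed 22 to 48 olfactory genes above 0, so that the libraries with many such genes were all male. The library labelled female control 3 held Eif2s3y at 13.7 FPKM, within the range of the male hearts, and the gene was at 0 in the other 9. The label was kept, and values are also given without this library. Limma called 0 of 13183 genes for the interaction (0%), with 0 at an adjusted p below 0.05, 305 at an unadjusted p under 0.05 and a smallest adjusted p of 0.404. Without female control 3 it called 0 genes as well, with 388 at an unadjusted p under 0.05. The gene with the smallest p that the rule names was Vamp5, a vesicle protein of muscle. It was at 15.4, 10.04, 6.87, 9.45 and 17.2 FPKM in male control and at 4.33, 7.19, 2.21, 5.38 and 4.85 FPKM in male hypoxia, where only 1 control lay within the range of the hypoxia hearts. On the deposited whole numbers it was at only 8 to 21 in male control and 3 to 9 in male hypoxia, and no floor on these was set for this choice. In females it was at 2.12 to 3.74 FPKM in control and at 3.13 to 5.32 FPKM in hypoxia. The male log2 fold change was -1.14 and the female one 0.37, a difference of -1.51 (standard error 0.329), or of -1.59 without female control 3 (limma adjusted p = 0.850). Cacng7, a regulatory subunit of channels, differed by -1.23 at values of at most 2.86 FPKM. Rpp14, a subunit of ribonuclease P, differed by -0.57, and Tipin, which steadies replication forks, by -0.65. Ccdc66, a centrosomal protein, went the other way with a difference of 0.44.

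The lists fell on both sides between the sexes. Endothelial markers had a median of 0.23 in females, with 16 of 20 positive, beside 0.26 in males. Glucocorticoid response genes had one of 0.31 in females, with 13 of 17 positive, beside 0.23. Interferon response genes had a median of 0.09 in females, with 22 of 31 positive, beside -0.33 in males, and 3 of the 31 had an unadjusted p under 0.05 for the interaction (2.31% of all genes tested had one). Without female control 3 that median was -0.00386, with 15 of 31 positive, so that its side of 0 rested on this library. Immediate early genes had a median of 0.05 in females, which was -0.02 without female control 3. Complement (-0.07) and macrophages (-0.09) had medians on the other side of 0 from the males, also without that library (-0.07 and -0.03). Within the 4 male libraries with few olfactory genes, control 1 and 2 and hypoxia 1 and 3, the male medians were also below 0 (-0.41 and -0.10). The levels of these lists there were 0.57 and 0.39 in control 1 and -0.28 and -0.37 in control 2. Leaving out 1 male heart at a time gave 0.04 to 0.39 for complement and 0.09 to 0.25 for macrophages, highest without control 1. Erythroid genes had a median of 0.66 in females with 7 of 7 positive, beside -0.20 in all males and 0.46 in the 4 male libraries with few olfactory genes, and one of 0.50 without female control 3. Erythroid levels in those 4 male libraries were -0.55 and 0.78 in control 1 and 2 and 0.36 and 0.40 in hypoxia 1 and 3. Without female control 3 the endothelial median was 0.21 and that of glucocorticoid response genes 0.17. No gene of any list was called for the interaction, and the difference between list medians was not tested.

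**Figure D5:**
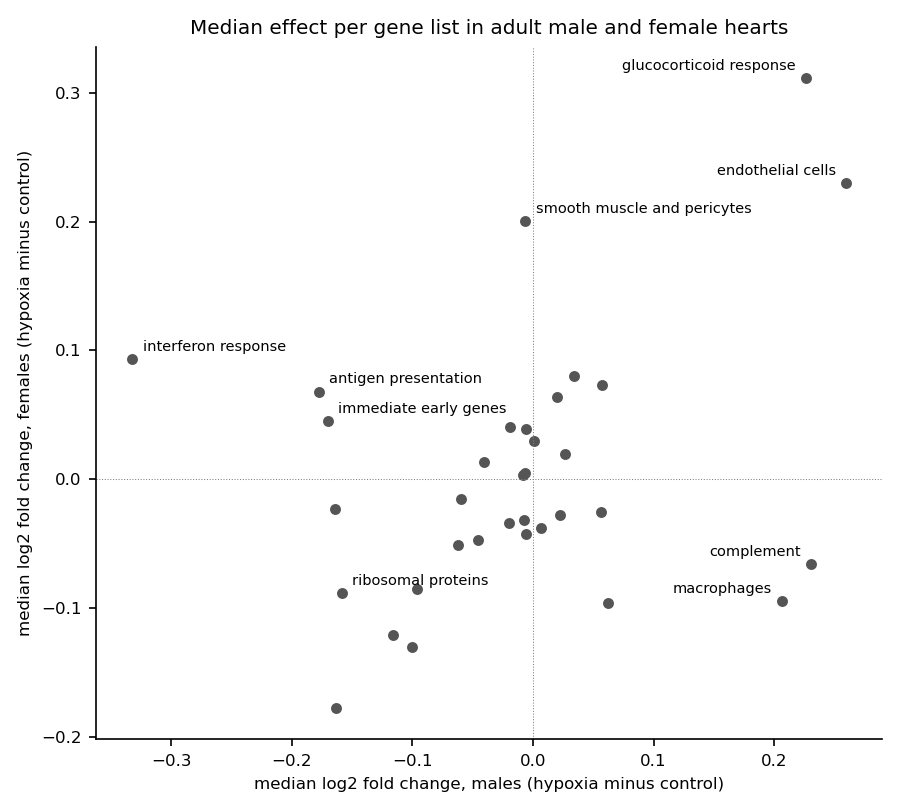
Median log2 fold change (hypoxia minus control) of each gene list with at least 10 tested genes in adult male hearts (horizontal axis) and adult female hearts (vertical axis), 1 point per list, dotted lines at 0. Endothelial and glucocorticoid response lists lie above 0 in both sexes, and the interferon list lies at -0.33 in males and 0.09 in females, the latter -0.00386 without female control 3.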

How the data were processed

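RNA-seq libraries of heart RNA (Ovation Universal RNAseq System) were processed by the authors with Trimmomatic 0.35 for trimming, TopHat2 2.1.1 for alignment (build Rnor6.0) and Cufflinks 2.2.1 for quantification, per the paper's methods and the submitters' notes. The deposited adult FPKM values and a deposited signal of whole numbers (scaled fragments) were used; the fetal tables were not used here. For many genes the whole numbers keep about 1 ratio to FPKM over the libraries, so that they were taken as scaled and not raw counts. For other genes, such as Asph and Ednrb, the ratio varies between libraries. No count model was fitted to the whole numbers as deposited. They summed to 6961540 to 7627560 per male library. Each gene's FPKM was divided by its median ratio of FPKM to whole number, which gave values before rounding. Fragments per library were estimated from the steps of the low ones, of which 62.1% to 74.6% came out whole within 0.1. These steps thus come from FPKM and are not an independent reading of the whole numbers. Group comparisons used limma 3.58.1 in R 4.3.3 with a variance trend, on log2(FPKM + 1), which understates the change of low genes. Genes needed a mean FPKM of at least 1, and p-values were Benjamini-Hochberg adjusted over all genes tested. Male and female hearts were fitted separately, and the interaction was fitted over all 20 adult hearts. Single values were compared by two-sided exact permutation tests over 252 splits, whose smallest p is 0.00794. The fit was tested on simulated data. Replicate libraries shared at most 2.96% identical whole numbers, so that none was a copy.

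Samples were grouped by their titles and labelled treatments. The members and gene lists were chosen with earlier results of these data known, so that no list is independent evidence. Named genes were, per direction, the 10 with the smallest p whose groups do not overlap on FPKM and on scaled fragments, leaving out symbols starting LOC, RGD, Mir, Snor, Olr, Vom or AABR and genes under a mean of 20 scaled fragments. Beside them stood up to 4 members of each list with the smallest p, the 10 genes with the largest spread at a mean FPKM of at least 5, the 5 with the smallest interaction p by the same choice of symbols, Prkce and Y-linked genes. The 10 genes with the highest means were mostly uncharacterised loci and transfer RNA genes and are not described. Replicate numbers did not pair the hearts (correlation of deviations -0.177 to 0.199). Promoters were matched by symbol or synonym to RefSeq's GRCr8 table, 1 entry per symbol, and no coordinates of the authors' build were used. The list of mitochondrially encoded genes matched 0 symbols. The atrial covariate (mean level of Myl7, Myl4 and Sln), the comparison without the hearts highest in it, limma's voom on estimated fragments, the components without transfer RNA genes the female medians without female control 3 and the lists without shared members were chosen after seeing the data.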

Additional observations from a re-analysis of the deposited data

Results flagged for a closer look

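Among 5 hearts of a group, 1 value was set apart from the other 4 by Dixon's ratio (over 0.71) in 19 of the 300 groups of values examined, where chance flags about 1 in 20. Most belonged to the 2 hearts richest in atrial genes. In control 1 these were Myl7 (3391 FPKM), Nppa (7026), Myl4 (1551), Sln (482), and the list levels of adipocytes (0.56) and of Schwann cells and neurons (1.18). In hypoxia 4 they were Nppa (2460 FPKM), Myl4 (343), Sln (124), Ankrd1 (3022), Cyr61 (16.5) and Cd163 (13.3), and the list levels of cardiomyocytes (-0.43) and macrophages (0.56). Single values elsewhere were Igtp in hypoxia 2 (20.4 FPKM), Gprc5d (1.501) and Bhlhe41 (8.42) in hypoxia 5, Rps23 in hypoxia 3 (234.5) and the list level of T and NK cells in control 2 (0.22). No gene was called for a difference between the sexes in the effect of hypoxia over all 20 hearts.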

How the results depend on the processing

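By limma, 0 genes were called in the male hearts on scaled fragments, with a pseudocount of 0.1, without the filter on low values, with quantile normalization, without the variance trend, with the olfactory term, within the 6 libraries with many olfactory genes, without the 2 hearts highest in atrial genes and by voom on estimated fragments. The count was 1 with sample weights and in the fit over all 20 adult libraries (RGD1359634 in both), 1 among genes averaging 5 FPKM or more (Mmrn2), where 500 had an unadjusted p under 0.05, and 2 with upper-quartile scaling (Mmrn2 and RGD1359634). Within the 4 libraries with few olfactory genes it was 2 (LOC103694296 and Trnal-uaa). With the atrial covariate it was 3, and 1 with the olfactory term beside it. Leaving out 1 heart at a time gave 0 to 1 calls: Mmrn2 without control 3, Wdr91 without hypoxia 2 and LOC102553254 without hypoxia 5. The replicate block gave 0 calls and 605 genes at an unadjusted p under 0.05, and the numbers do not pair the hearts. The interaction had 0 to 1 calls without 1 heart, the 1 being RGD1359634 without male hypoxia 4, female hypoxia 2 or female control 5, and 160 genes at an unadjusted p under 0.05 among those averaging 5 FPKM or more. Component 1 differed by 0.97 without transfer RNA genes, against -4.92 with them, and the number of olfactory genes by -160.5 to 144.15 (hypoxia minus control) without 1 heart. Gene values that changed sign belonged to genes not called. In the libraries with many olfactory genes these were Npr3 (0.19), Nppa (0.96), Myl4 (2.56), Sln (2.07) and Prkce (-0.0275), and in those with few Hba1 (0.46), Pln (0.0743) and Myl7 (-3.04). Pln was at 0.0479 with quantile normalization and Myl4 at 0.15 without the 2 atrial-rich hearts. Without 1 heart, Nppa ran from -1.39 to 0.00378, Myl7 from -0.26 to 2.196, Myl4 from -1.18 to 1.02 and Sln from -1.53 to 0.75. Of the list medians under alternatives, 1112 moved by less than the spread between hearts and 32 by more, 20 of them within the 4 libraries with few olfactory genes. Causes were not tested. Count models were not run, since the whole numbers were taken as scaled. With 5 hearts a group and a median standard error of 0.137, small differences were not detectable.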
